A study of Mus musculus with 8 samples.

Results

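The genes of leukaemia inhibitory factor (LIF) and STAT3 signalling were followed in mouse embryonic stem cells with mutations of Gtf2i, the gene of the transcription factor TFII-I, or of Hprt, the gene of a purine salvage enzyme. They were Lif, Lifr, Osmr, Il6st, Jak1, Jak2, Stat3 and Socs3, 8 of the 18193 genes that the array annotation named by a single symbol. Every probe set whose only symbol was one of these genes was taken, which gave 24 of 45101 probe sets. All 8 genes lay above a filter on low values and were among the 13819 genes tested. Each gene is described by its brightest probe set, judged by the mean of all arrays, unless another is named.

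RNA was measured on 8 Affymetrix mouse arrays, 2 in each of 4 groups. The exon 2 mutant had 1 Gtf2i allele without exon 2 (genotype label Δexon2/+) and was derived by gene targeting from the R1 stem cell line. The trap line carried a gene-trap insertion in Gtf2i, was derived from AB2.2 stem cells, and had the genotype label HPRT -/-:GTF2I +/-. The Hprt knockout was labelled HPRT -/- with no Gtf2i mutation, and the wild-type cells carried neither mutation. The labels did not name the parent line of the Hprt knockout or of the wild-type cells, and each mutant was a single line, so line and mutation cannot be told apart. All 4 groups were grown in medium with LIF and serum replacement on a layer of feeder cells, so each culture received LIF protein from outside and could hold RNA of 2 cell types. The 2 arrays of a group were called biological replicates without a word on separate cultures, and p-values therefore measure only the spread between these arrays.

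LIF is a secreted cytokine of the interleukin-6 family that keeps mouse embryonic stem cells undifferentiated. It binds the LIF receptor (Lifr), which pairs with the shared signalling chain gp130 (Il6st), while the oncostatin M receptor (Osmr) pairs with gp130 to bind oncostatin M. The JAK kinases bound to these receptors phosphorylate STAT3, which enters the nucleus and activates target genes. One of these targets is Socs3, whose product inhibits the receptor and its kinases.

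The promoters of the ligand, of the receptor with the widest range among the groups and of the feedback inhibitor are shown, because they are the ones in which a searched motif was found. The windows are from RefSeq on GRCm38.p6, with 250 bases before to 50 after an annotated start, and all 8 genes matched, Lifr with 2 starts, giving 9 windows. The annotated bounds of Osmr (6874968), Socs3 (117970336) and Lifr (7090610) lie further upstream than their windows, and sequence there was not searched. The searched motifs were TTCNNNGAA, a sequence that STAT dimers can bind, and TGANTCA, an AP-1 type sequence; each reads the same on both strands, and they do not overlap in these windows. TTCNNNGAA occurred in 1 of the 9 windows, that of Socs3, and in 2726 of all 32851 promoter windows of the same length (8.3%). TGANTCA occurred in 2 of the 9 windows, those of Lif and Osmr, and in 2565 of all windows (7.81%). Capitals mark the matches, which are descriptions of the letters only. The Lif window is chr11:4257318-4257617 on the plus strand, with TGACTCA beginning 228 bases before the start. The Osmr window is chr15:6874264-6874563 on the minus strand, with TGATTCA beginning at transcribed base 4. The Socs3 window is chr11:117969317-117969616 on the minus strand, with TTCTTAGAA beginning 154 bases before the start.
Lif: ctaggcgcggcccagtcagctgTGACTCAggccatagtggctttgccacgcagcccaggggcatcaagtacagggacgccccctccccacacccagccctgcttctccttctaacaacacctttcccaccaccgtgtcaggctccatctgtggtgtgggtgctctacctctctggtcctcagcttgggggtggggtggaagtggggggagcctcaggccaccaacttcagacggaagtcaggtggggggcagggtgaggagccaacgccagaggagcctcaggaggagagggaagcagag
Osmr: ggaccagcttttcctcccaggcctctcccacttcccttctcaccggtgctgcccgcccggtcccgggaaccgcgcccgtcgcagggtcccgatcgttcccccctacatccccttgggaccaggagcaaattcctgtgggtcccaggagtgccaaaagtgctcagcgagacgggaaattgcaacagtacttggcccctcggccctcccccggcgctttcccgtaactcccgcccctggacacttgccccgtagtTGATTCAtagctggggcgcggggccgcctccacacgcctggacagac
Socs3: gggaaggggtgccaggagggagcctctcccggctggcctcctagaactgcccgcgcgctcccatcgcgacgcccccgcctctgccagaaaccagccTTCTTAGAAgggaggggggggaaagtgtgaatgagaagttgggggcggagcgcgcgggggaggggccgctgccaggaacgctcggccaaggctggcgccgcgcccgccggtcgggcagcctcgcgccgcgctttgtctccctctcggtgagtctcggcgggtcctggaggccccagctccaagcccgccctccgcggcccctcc

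Arrays of a group correlated at 0.997 to 0.998 over the tested genes, whereas Hprt knockout and wild-type arrays correlated at 0.866 to 0.867. Of 26 feeder fibroblast markers, 25 had a probe set with a single symbol, and all of these were tested. Their summed intensity on the linear scale was 139069 to 141938 in the exon 2 mutant, 138658 to 140417 in the trap line, 11474 to 11499 in the Hprt knockout and 227154 to 228048 in wild-type. The marker Lum, at 5.21 and 5.27 on the log2 scale in the Hprt knockout, was the 1 of the 25 to lie under the filter level there. Summed stem cell markers (11 of 12 measured) ran the other way, at 63278 to 66217 in the exon 2 mutant, 63909 to 65524 in the trap line, 74007 to 75598 in the Hprt knockout and 55099 to 55468 in wild-type. Of the 11, 9 were higher and 2, Nanog and Zfp42, lower in the Hprt knockout than in wild-type, by the test described below. Of all tested genes 46.4% were higher and 25.1% lower. Dppa5a, at 14.53 and 14.50 in the Hprt knockout, was the brightest and weighs most in the sum. The leukocyte markers Ptprc, Itgam and Tyrobp were below the filter level on every array, while the summed list of 8 was 1762 to 1779 in the exon 2 mutant, 1984 to 2030 in the trap line, 3023 to 3035 in the Hprt knockout and 1473 to 1556 in wild-type. Laptm5 was the brightest of the 8, at 11.22 on both Hprt knockout arrays, and weighs most in that sum. Laptm5 and Cd68 were higher in the Hprt knockout than in wild-type, while Cd14 and Adgre1 were lower. The mean log2 value of the list was 6.24 to 6.25 in the Hprt knockout and 6.14 to 6.16 in wild-type. Hprt itself was lower in both lines labelled HPRT -/-, at 10.76 and 10.72 in the trap line, 10.05 and 10.02 in the Hprt knockout, and 12.09 and 12.08 in wild-type. Gtf2i was at 10.45 and 10.51 in the exon 2 mutant, 10.11 and 10.07 in the trap line, 10.92 and 10.89 in the Hprt knockout and 10.10 and 10.14 in wild-type, and where its probes lie relative to exon 2 or to the trap was not analysed here. In these bulk samples fewer cells of a type and less RNA per cell cannot be told apart, and the part of the feeder content in the results that follow was not tested.

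Most of the pathway was lower in the Hprt knockout than in any other group, and Lif was lower in all 3 mutant groups than in wild-type. Tests were made with limma over all tested genes, with Benjamini-Hochberg adjusted p under 0.05 as the threshold, and differences are log2 ± standard error (SE). In the exon 2 mutant against wild-type 1 of the 8 genes rose and 5 fell, beside 55.5% of all tested genes called (32.5% higher, 23.1% lower). In the trap line against the Hprt knockout 6 rose and none fell, beside 68.4% of all genes called (26.6% higher, 41.8% lower). The Hprt knockout against wild-type had 6 that fell and none that rose, beside 71.5% called (46.4% higher, 25.1% lower). The trap line against wild-type had 1 that rose and 3 that fell, beside 41.1% called (26.5% higher, 14.6% lower). Counts and medians that involve the Hprt knockout, here and below, include Osmr. It lay under the filter level there and was tested through the groups where it was high, so these calls of Osmr carry no weight.

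The remaining comparisons set the exon 2 mutant against the other 2 mutant groups. Against the Hprt knockout 7 of the 8 rose and 1, Socs3, fell by 0.19 ± 0.07 (adjusted p = 0.0474, past the threshold in 5 of 16 alternative settings), beside 61.2% of all genes called (24.9% higher, 36.3% lower). Against the trap line 1 rose and 2 fell, beside 49.2% called (24.5% higher, 24.7% lower). With so many of all genes called, the number of members called says little by itself. At least 2-fold changes past the test were fewer: 1 of the 8 genes in the exon 2 mutant against wild-type (5.43% of all genes), 5 in the trap line against the Hprt knockout (15.2%), 5 in the Hprt knockout against wild-type (19.2%) and 1 in the trap line against wild-type (3.42%). Such genes in the exon 2 mutant numbered 4 against the Hprt knockout (11.1%) and 0 against the trap line (4%), where limma called 3 of the 8 at adjusted p under 0.05. The median difference of the 8 genes was -0.24 in the exon 2 mutant against wild-type, -0.08 in the trap line against wild-type and -1.67 in the Hprt knockout against wild-type, beside 0.03, 0.05 and 0.16 over all tested genes. It was 1.33 in the trap line against the Hprt knockout, beside -0.13 over all genes. The 3 comparisons with wild-type share the wild-type arrays, and the 3 with the Hprt knockout share its arrays. The exon 2 mutant minus wild-type and the trap line minus the Hprt knockout are called both Gtf2i effects below. Each is a difference between lines, in which line and mutation cannot be told apart. The 2 differed from each other past the threshold for 6 of the 8 genes, beside 69.7% of all tested genes.

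**Figure D1:**
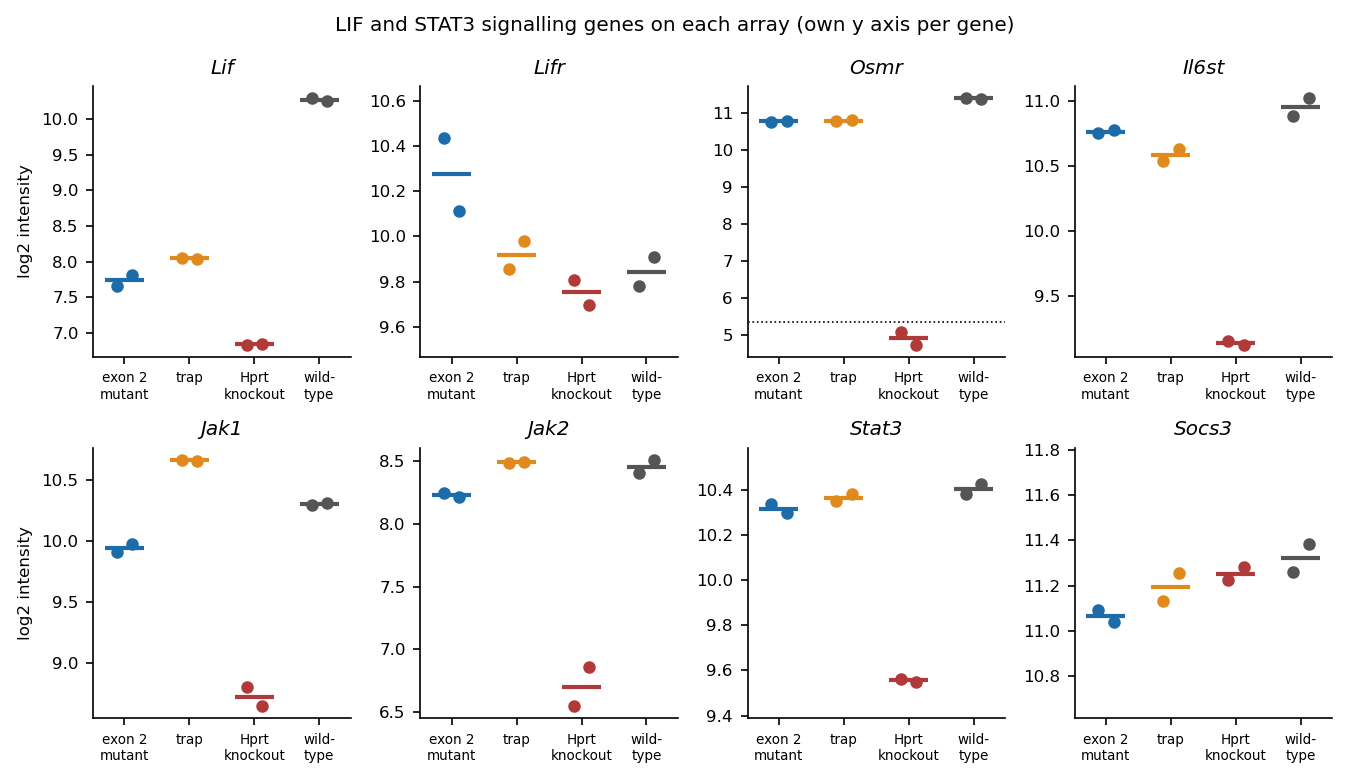
Log2 intensity (y axis, a separate scale for each gene) of the 8 genes on each array, by group (x axis); each point is an array, each bar the mean of 2 arrays, and the dotted line in the Osmr panel the filter level of the Hprt knockout arrays (log2 5.35). Both Hprt knockout points are the lowest for Lif, Osmr, Il6st, Jak1, Jak2 and Stat3, both wild-type points are the highest for Lif, and Socs3 lies between 11.04 and 11.39 on all arrays.

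Lif, the ligand, had log2 intensities of 7.66 and 7.81 in the exon 2 mutant, 8.05 and 8.04 in the trap line, 6.83 and 6.84 in the Hprt knockout, and 10.30 and 10.26 in wild-type. The 4 groups did not overlap, and every step in the order wild-type, trap, exon 2 mutant, Hprt knockout passed the test. Against wild-type, Lif fell in the exon 2 mutant by 2.54 ± 0.06 (5.82-fold, adjusted p = 1.72e-06), in the trap line by 2.24 ± 0.06 (4.71-fold, adjusted p = 3.79e-06) and by 3.45 ± 0.06 in the Hprt knockout (10.9-fold, adjusted p = 1.93e-08). It was the only one of the 8 genes that changed at least 2-fold in the exon 2 mutant or in the trap line against wild-type. The feeder markers had a median difference of -0.48 in the exon 2 mutant, -0.44 in the trap line and -4.71 in the Hprt knockout, each against wild-type. In both Gtf2i mutant lines 2 of the 25 feeder markers, Ccn1 and Ccn2, had a lower log2 difference from wild-type than Lif. Ccn1 was at -2.67 in the exon 2 mutant and -3.34 in the trap line, and Ccn2 at -2.80 and -3.71. In the Hprt knockout 21 of the 25 were lower than Lif. The trap line exceeded the Hprt knockout in Lif by 1.21 ± 0.06 (adjusted p = 3.65e-06), where 23 of the 25 feeder markers had a larger difference. The difference of the exon 2 mutant from the trap line was -0.31 ± 0.06 (adjusted p = 0.00581). A second, dimmer probe set of Lif had means from 5.27 to 5.62 over the 4 groups, near the filter level of 5.35, and none of its differences from wild-type passed.

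Among the receptors, Osmr had the widest range. The oncostatin M receptor gene was at 10.78 and 10.79 in the exon 2 mutant, 10.78 and 10.81 in the trap line, 5.09 and 4.75 in the Hprt knockout, and 11.40 and 11.40 in wild-type. The Hprt knockout values lay below the filter level, so folds against them are bounds: Osmr was at least 43.3-fold higher in the exon 2 mutant, at least 43.7-fold higher in the trap line and at least 66.5-fold higher in wild-type than that level. Osmr was above the filter level on 6 arrays, none of them of the Hprt knockout, and was tested through these. Its calls against the Hprt knockout therefore carry no weight, and only the bounds describe the amounts. The feeder marker Lum lay under the filter level in the same arrays. In the 2 Gtf2i mutant lines the fall was small, by 0.62 ± 0.10 in the exon 2 mutant (1.54-fold, adjusted p = 0.00202) and by 0.61 ± 0.10 in the trap line (1.52-fold, adjusted p = 0.00351), each against wild-type. The exon 2 mutant and the trap line overlapped (difference -0.01 ± 0.10, adjusted p = 0.924). A dimmer probe set of Osmr, likewise above the filter level on 6 arrays outside the Hprt knockout, has the same limit. It was at -1.35 ± 0.20 in the Hprt knockout against wild-type, and the last of the 3 was below the filter level.

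Il6st encodes gp130, the signalling chain shared by receptors of the family. Its values were 10.76 and 10.78 in the exon 2 mutant, 10.54 and 10.63 in the trap line, 9.15 and 9.12 in the Hprt knockout, and 10.88 and 11.02 in wild-type. The Hprt knockout stood apart from the other 3 groups, which lay within 0.485 of each other. Il6st fell in the Hprt knockout against wild-type by 1.82 ± 0.06 (3.52-fold, adjusted p = 4.96e-07) and rose in the trap line against the Hprt knockout by 1.45 ± 0.06 (adjusted p = 1.82e-06). Against wild-type it fell by 0.37 ± 0.06 in the trap line (adjusted p = 0.00407). Its fall in the exon 2 mutant, by 0.19 ± 0.06 (adjusted p = 0.043), did not hold in 11 of 16 alternative settings, with adjusted p up to 0.216. The exon 2 mutant and the trap line did not differ beyond the test (0.18 ± 0.06, adjusted p = 0.0535). A second Il6st probe set fell further in the Hprt knockout against wild-type, by 3.71 ± 0.15 (adjusted p = 1.05e-06). Against wild-type that probe set also fell in the exon 2 mutant (-0.55 ± 0.15, adjusted p = 0.0197) and in the trap line (-0.74 ± 0.15, adjusted p = 0.00869). The dimmer Il6st probe sets passed in neither of these comparisons.

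Lifr, the receptor chain that binds LIF, was at 10.44 and 10.11 in the exon 2 mutant, 9.85 and 9.98 in the trap line, 9.81 and 9.70 in the Hprt knockout, and 9.78 and 9.91 in wild-type. The exon 2 mutant was higher than each other group without overlap, and its own 2 arrays lay furthest apart among the groups. Lifr rose in the exon 2 mutant against wild-type by 0.43 ± 0.11 (adjusted p = 0.0154), a call lost without the first exon 2 mutant array (0.27, adjusted p = 0.0572) and without the first wild-type array (0.37, adjusted p = 0.0862). It was at 0.01 (adjusted p = 0.91) when the 3 Lifr probe sets were averaged. The 2 dimmer probe sets had negative differences there, -0.05 and -0.35, and neither passed. Against the trap line Lifr rose in the exon 2 mutant by 0.36 ± 0.11 (adjusted p = 0.035, held in 9 of 16 alternative settings), and against the Hprt knockout by 0.52 ± 0.11 (adjusted p = 0.00589), while a dim probe set gave -0.72 ± 0.16 (adjusted p = 0.00668). The Hprt knockout did not differ from wild-type beyond the test (-0.09 ± 0.11, adjusted p = 0.498), and all 25 feeder markers had lower differences there.

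**Figure D2:**
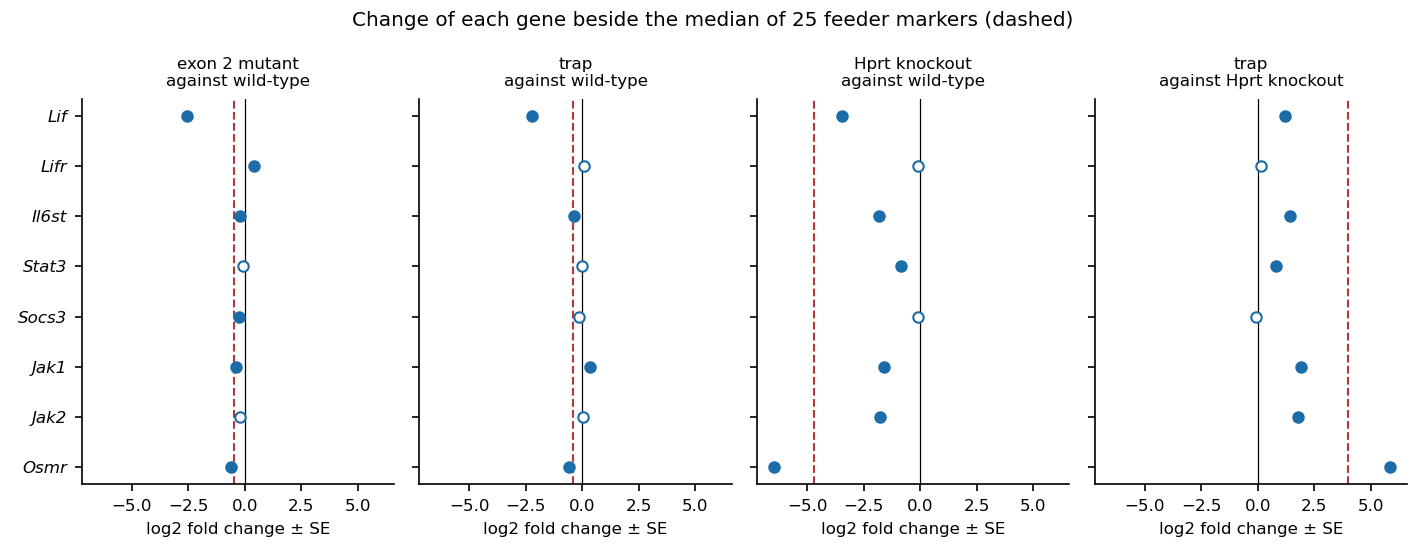
Log2 fold change (x axis, ± SE, mostly hidden by the points) of the 8 genes (y axis) in 4 comparisons; filled points passed the test, open points did not, and the dashed line is the median of the 25 feeder markers. Lif lies at -2.54 and -2.24 in the exon 2 mutant and the trap line against wild-type, left of feeder medians of -0.48 and -0.44, and in the Hprt knockout against wild-type Osmr alone lies left of the median of -4.71.

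Both kinases were lowest in the Hprt knockout. Jak1, a kinase that binds gp130, was at 9.90 and 9.97 in the exon 2 mutant, 10.66 and 10.65 in the trap line, 8.80 and 8.65 in the Hprt knockout, and 10.29 and 10.31 in wild-type. No groups overlapped, and each step in the order trap, wild-type, exon 2 mutant, Hprt knockout passed. Jak1 fell in the Hprt knockout against wild-type by 1.58 ± 0.06 (2.99-fold, adjusted p = 9.29e-07) and rose in the trap line against the Hprt knockout by 1.93 ± 0.06 (3.82-fold, adjusted p = 4.08e-07). The Gtf2i mutant lines lay on opposite sides of wild-type: Jak1 fell by 0.36 ± 0.06 in the exon 2 mutant (adjusted p = 0.0026) and rose by 0.35 ± 0.06 in the trap line (adjusted p = 0.00456). In the exon 2 mutant Jak1 was below the trap line by 0.72 ± 0.06 (adjusted p = 0.000171). The other 2 Jak1 probe sets also fell in the Hprt knockout against wild-type, by 1.65 and 1.50, but the rise of the trap line over wild-type passed on 1 of them only (0.50, adjusted p = 0.00675). On that one the fall in the exon 2 mutant against wild-type did not pass (-0.21 ± 0.09, adjusted p = 0.112), while on the remaining one it did (-0.46 ± 0.06, adjusted p = 0.00118). Only the brightest probe set thus passed on both sides of wild-type.

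Jak2, a further kinase of the cytokine receptors, was at 8.24 and 8.22 in the exon 2 mutant, 8.48 and 8.50 in the trap line, 6.55 and 6.85 in the Hprt knockout, and 8.40 and 8.51 in wild-type. The Hprt knockout was again apart, and the trap line overlapped wild-type. Jak2 fell in the Hprt knockout against wild-type by 1.76 ± 0.10 (3.38-fold, adjusted p = 4.88e-06) and rose in the trap line against the Hprt knockout by 1.79 ± 0.10 (adjusted p = 5.37e-06). In the exon 2 mutant the difference from wild-type, -0.23 ± 0.10, did not pass (adjusted p = 0.0935) but did in 5 of 16 alternative settings, and the second Jak2 probe set fell there by 0.45 ± 0.08 (adjusted p = 0.00266). That probe set also rose against wild-type in the trap line (0.30 ± 0.08, adjusted p = 0.0221) and fell in the exon 2 mutant against the trap line (-0.75 ± 0.08, adjusted p = 0.000381). On the brightest probe set the exon 2 mutant differed from the trap line by -0.26 ± 0.10 (adjusted p = 0.0673), which passed in 7 of 16 alternative settings.

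Stat3, the transcription factor of the pathway, was at 10.34 and 10.30 in the exon 2 mutant, 10.35 and 10.38 in the trap line, 9.56 and 9.55 in the Hprt knockout, and 10.38 and 10.43 in wild-type. The 3 groups other than the Hprt knockout lay within 0.13 of each other, and no difference between them passed on the brightest probe set. Stat3 fell in the Hprt knockout against wild-type by 0.85 ± 0.05 (1.80-fold, adjusted p = 5.24e-06) and rose in the trap line against the Hprt knockout by 0.81 ± 0.05 (adjusted p = 8.00e-06). Its difference from wild-type was -0.09 ± 0.05 in the exon 2 mutant (adjusted p = 0.17) and -0.04 ± 0.05 in the trap line (adjusted p = 0.572). A second bright Stat3 probe set fell by 0.78 ± 0.06 (adjusted p = 1.91e-05) in the Hprt knockout against wild-type, and neither of the 2 dim ones passed there. That second bright probe set also fell in the exon 2 mutant against wild-type (-0.16 ± 0.06, adjusted p = 0.0484). One of the dim ones rose in the exon 2 mutant against the trap line (0.54 ± 0.17, adjusted p = 0.0419).

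Socs3, the feedback inhibitor whose promoter holds the STAT-type motif printed above, was at 11.09 and 11.04 in the exon 2 mutant, 11.13 and 11.26 in the trap line, 11.23 and 11.28 in the Hprt knockout, and 11.26 and 11.39 in wild-type. The whole range was 0.35, and no neighbours in the order of the means differed beyond the test. Unlike most of the pathway, Socs3 was not lowest in the Hprt knockout: its difference from wild-type there was -0.07 ± 0.07 (adjusted p = 0.385), or -0.23 relative to the median of all tested genes. It fell in the exon 2 mutant against wild-type by 0.26 ± 0.07 (adjusted p = 0.0157), a call lost without the second exon 2 mutant array (adjusted p = 0.068) and without the second wild-type array (adjusted p = 0.09). This probe set is of a type that may also bind transcripts of other genes. Socs3 has 1 probe set of the plain type, and there the same comparison gave -0.04 ± 0.06 (adjusted p = 0.684), while the remaining one fell by 0.32 ± 0.07 (adjusted p = 0.00725). In the exon 2 mutant against the Hprt knockout the plain probe set fell by 0.19 ± 0.06 (adjusted p = 0.0366) and the remaining one by 0.25 ± 0.07 (adjusted p = 0.016).

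**Figure D3:**
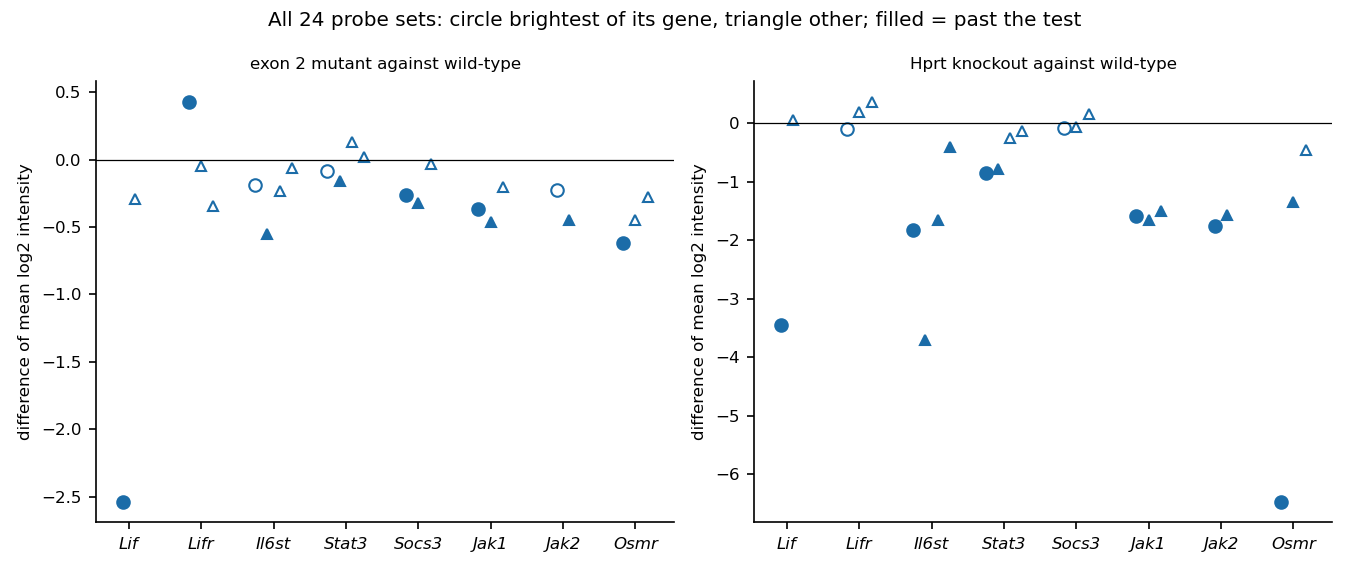
Difference of mean log2 intensity (y axis) for all 24 probe sets by gene (x axis); circles are the brightest probe set of a gene, triangles its others, and filled marks passed a fit over all probe sets, which differs from the fit over genes. In the Hprt knockout against wild-type 14 probe sets fell and none rose, and in the exon 2 mutant against wild-type 9 fell and 1, of Lifr, rose. The share called in the fit over all probe sets is not given here, so these counts say little by themselves.

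The quantile normalization of the deposited values bears on the smaller of these differences. Cyclic loess scaling was applied to the deposited values, on top of their quantile normalization and not in place of it. This scaling moved the median of all tested genes by 0.14 in the trap line against the Hprt knockout, by -0.16 in the Hprt knockout against wild-type and by 0.11 in the exon 2 mutant against the Hprt knockout. Under it the split of all genes called in the Hprt knockout against wild-type was 4710 higher and 4731 lower, beside 6409 and 3467 here. In the trap line against the Hprt knockout it was 4689 and 4243, beside 3675 and 5774. In the exon 2 mutant against the Hprt knockout it was 4419 and 3671, beside 3442 and 5013. In the exon 2 mutant against wild-type it was 3671 and 4028, beside 4485 and 3189, and in the trap line against wild-type 3034 and 2570, beside 3662 and 2011. Relative to the median of all tested genes, the Hprt knockout against wild-type stood at -3.61 for Lif, -1.98 for Il6st, -1.74 for Jak1, -1.92 for Jak2 and -1.01 for Stat3. With cyclic loess Lifr and Socs3 also fell in that comparison, by 0.34 (adjusted p = 0.0218) and 0.29 (adjusted p = 0.0057). It also brought past the threshold Lifr in the trap line against the Hprt knockout (0.33, adjusted p = 0.0253), Socs3 against wild-type in the trap line (-0.20, adjusted p = 0.0446), and Stat3 in the exon 2 mutant against wild-type (-0.20, adjusted p = 0.00857). Jak2 passed under it in the exon 2 mutant against wild-type (-0.32, adjusted p = 0.0319) and against the trap line (-0.30, adjusted p = 0.0458). Whether these differ thus depends on the scaling.

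Some other ligands of gp130, Il6 and Il11 among them, fell against wild-type. Of 6 listed, 5 were measured: 1 rose and 2 fell in the exon 2 mutant against wild-type, none rose and 2 fell in the trap line against wild-type, and none rose and 3 fell in the Hprt knockout against wild-type. Of all tested genes 55.5%, 41.1% and 71.5% were called in these 3 comparisons, so the counts of this and the further lists lie in a background of many calls. Il6, interleukin-6, was at 9.63 and 9.54 in the exon 2 mutant, 8.86 and 8.88 in the trap line, 3.60 and 3.23 in the Hprt knockout, and 11.52 and 11.56 in wild-type. It fell by 1.95 ± 0.11 in the exon 2 mutant (adjusted p = 2.80e-05) and fell by 2.67 ± 0.11 in the trap line (adjusted p = 1.77e-05), each against wild-type, and both Hprt knockout values lay under the filter level. Il6 was thus tested through the groups where it was high, and its fall in the Hprt knockout, among the 3 counted, carries no weight. Il11, interleukin-11, fell against wild-type by 1.60 ± 0.09 in the exon 2 mutant, by 1.35 ± 0.09 in the trap line and by 2.31 ± 0.09 in the Hprt knockout (adjusted p = 2.09e-05, 6.25e-05 and 6.01e-07). Osm, oncostatin M, rose in the exon 2 mutant against wild-type by 0.53 ± 0.15 (adjusted p = 0.0205). The cytokine receptor chain gene Cntfr rose in the Hprt knockout against wild-type by 0.37 ± 0.13 (adjusted p = 0.0386), 1 of 2 measured co-receptors.

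JAK and STAT genes outside the 8 were also measured. Of 6 measured, 5 rose and none fell in the exon 2 mutant against wild-type, 4 rose and 1 fell in the trap line against wild-type, and 4 rose and 2 fell in the Hprt knockout against wild-type, beside 32.5%, 26.5% and 46.4% of all genes higher and 23.1%, 14.6% and 25.1% lower. Stat2, which acts in interferon signalling, was higher than wild-type by 0.93 ± 0.11 in the exon 2 mutant (adjusted p = 0.000435) and by 0.59 ± 0.11 in the trap line (adjusted p = 0.00545). Stat6, which acts in interleukin-4 signalling, was higher by 0.64 ± 0.06 in the exon 2 mutant (adjusted p = 0.000131) and by 0.63 ± 0.06 in the trap line (adjusted p = 0.000262). Stat5b fell in the Hprt knockout against wild-type by 0.95 ± 0.10 (adjusted p = 0.000127) and Stat5a rose by 0.67 ± 0.09 (adjusted p = 0.000449).

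Among inhibitors and adapters of the pathway some rose and others fell, as among all genes, of which 32.5%, 26.5% and 46.4% were higher and 23.1%, 14.6% and 25.1% lower against wild-type in the exon 2 mutant, the trap line and the Hprt knockout. Of 16, 7 rose and 6 fell in the exon 2 mutant against wild-type, 6 rose and 4 fell in the trap line against wild-type, and 9 rose and 4 fell in the Hprt knockout against wild-type. The medians were -0.02, -0.02 and 0.19. Socs2, a suppressor of cytokine signalling, rose against wild-type by 0.84 ± 0.06 in the exon 2 mutant, by 0.54 ± 0.06 in the trap line and by 0.66 ± 0.06 in the Hprt knockout (adjusted p = 5.62e-05, 0.000623 and 4.94e-05). Socs5, of the same family, fell against wild-type by 0.51 ± 0.07 in the exon 2 mutant and by 1.47 ± 0.07 in the Hprt knockout (adjusted p = 0.000962 and 2.44e-06). Gab1, an adapter that binds SHP2, rose by 0.68 ± 0.05 in the exon 2 mutant (adjusted p = 8.17e-05) and 0.95 ± 0.05 in the Hprt knockout (adjusted p = 4.64e-06), each against wild-type. Ptpn11, which encodes SHP2, fell in the Hprt knockout against wild-type by 0.80 ± 0.05 (adjusted p = 8.29e-06).

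Target genes of STAT3 were divided by where they are known. Of 12 known from stem cells, 5 rose and 6 fell in the exon 2 mutant against wild-type, 4 rose and 5 fell in the trap line against wild-type, and 4 rose and 6 fell in the Hprt knockout against wild-type. Their medians were -0.12, -0.07 and -0.26. Of all tested genes 32.5%, 26.5% and 46.4% were higher and 23.1%, 14.6% and 25.1% lower in these comparisons. Klf4, a pluripotency factor, was at 11.84 and 11.79 in the exon 2 mutant, 12.35 and 12.32 in the trap line, 11.40 and 11.43 in the Hprt knockout, and 11.53 and 11.51 in wild-type. The trap line was highest without overlap, and its rise over wild-type was 0.81 ± 0.05 (adjusted p = 5.18e-05). Tfcp2l1, a STAT3 target that sustains self-renewal, rose likewise in the trap line, by 0.72 ± 0.05 against wild-type (adjusted p = 9.77e-05) and by 1.14 ± 0.05 against the Hprt knockout (adjusted p = 1.94e-06). Klf4 and Tfcp2l1 also rose in the exon 2 mutant against wild-type, by 0.29 ± 0.05 and 0.26 ± 0.05 (adjusted p = 0.00211 and 0.00474). Pim1, of the same list, fell in the trap line against wild-type by 0.73 ± 0.06 (adjusted p = 0.000129). The growth regulator Myc and the early response genes Junb and Ier3 fell in the exon 2 mutant against wild-type, by 0.98 ± 0.07, 1.21 ± 0.10 and 1.12 ± 0.05, and in the Hprt knockout by 1.61 ± 0.07, 1.51 ± 0.10 and 4.01 ± 0.05. In the trap line Ier3 fell against wild-type by 0.68 ± 0.05 (adjusted p = 0.000128). Myc was at 9.73 and 9.72 in the trap line and 9.93 and 10.03 in wild-type. Junb was at 8.19 and 8.34 in the trap line and 8.83 and 8.75 in wild-type. Gbx2, a homeobox gene, rose in the Hprt knockout against wild-type by 1.16 ± 0.09 (adjusted p = 2.66e-05).

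STAT3 targets of the acute-phase and inflammatory kind were listed apart. Of 10 listed, 9 were measured and 8 tested: 1 rose and 7 fell in the exon 2 mutant against wild-type, 1 rose and 3 fell in the trap line, and all 8 fell in the Hprt knockout. Their medians were -1.20, -0.06 and -2.95. These counts and medians include Fgl2, which lay above the filter level only on the 2 wild-type arrays (5.62 and 6.59). It was tested through the group where it was high, so its falls against wild-type carry no weight. In the same comparisons 32.5%, 26.5% and 46.4% of all tested genes were higher and 23.1%, 14.6% and 25.1% lower. Lcn2, which encodes the iron carrier lipocalin 2, was at 8.47 and 8.30 in the exon 2 mutant, 10.65 and 10.73 in the trap line, 4.38 and 4.78 in the Hprt knockout, and 10.91 and 10.91 in wild-type. The trap line lay near wild-type, the exon 2 mutant between, and the Hprt knockout below the filter level. Lcn2 was thus tested through the other groups, and its fall in the Hprt knockout, among the 8 counted, carries no weight. Lcn2 was lower in the exon 2 mutant than in the trap line by 2.30 ± 0.13 (adjusted p = 3.36e-05), while the median of the feeder markers in that comparison was -0.08. The same comparison gave -1.89 ± 0.08 for Hp, haptoglobin, and -1.34 ± 0.12 for Saa3, a serum amyloid A gene (adjusted p = 1.49e-05 and 0.000194). A2m, alpha-2-macroglobulin, was the 1 that rose there, by 1.34 ± 0.11 (adjusted p = 0.000152).

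**Figure D4:**
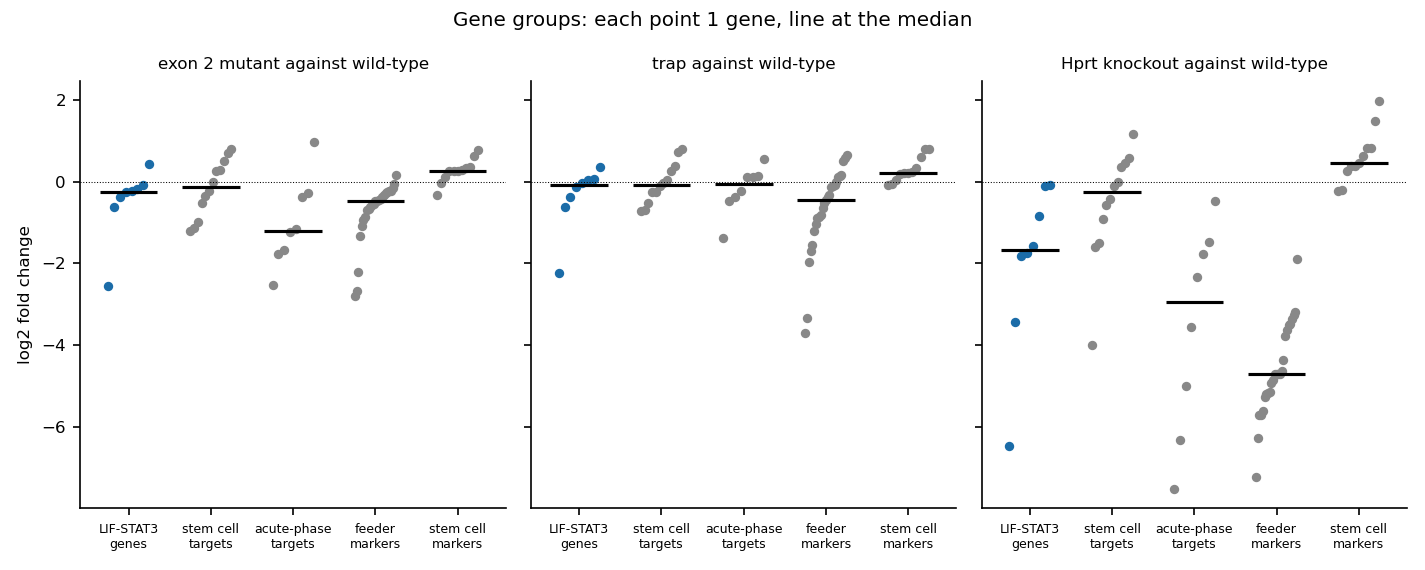
Log2 fold change against wild-type (y axis) of the tested genes of 5 lists (x axis) in the exon 2 mutant, the trap line and the Hprt knockout; each point is a gene and each bar the list median. In the Hprt knockout the medians are -1.67 for the 8 LIF and STAT3 signalling genes, -0.26 for STAT3 targets in stem cells, -2.95 for acute-phase targets, -4.71 for feeder markers and 0.45 for stem cell markers.

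For each of the 8 genes the 3 tested genes with the most similar centred log2 profile over the 8 arrays were listed, by the root mean square (RMS) difference. The arrays form 4 groups, so a profile rests on few independent points. Lif was followed most closely by Hbegf, which encodes heparin-binding EGF-like growth factor, at an RMS difference of 0.08 and Pearson's r of 0.998, and then by Cxcl14 (0.22) and F3 (0.23). Osmr was followed by Ifit3 (0.18), Iigp1 (0.23) and Vcam1 (0.28). The nearest gene was Cntln for Il6st (0.07), Lxn for Jak1 (0.06), Anxa4 for Jak2 (0.08), Pygb for Stat3 (0.05), Atg10 for Lifr (0.06) and Ampd2 for Socs3 (0.03). None of the 24 nearest genes was on the feeder list, but that list held only 25 of the 13819 tested genes, so this count says little.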

How the data were processed

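RNA from 8 samples of mouse embryonic stem cells was measured on Affymetrix arrays, per the labels' protocols. The deposited values are log2 intensities that the authors made with RMA, per the submitters' processing notes, of unstated version. RMA normalizes arrays by quantiles, so a shift of most genes at once is not visible, and array number limits the precision. Probe sets were named through the platform annotation (34945 with 1 symbol, 932 with several, 9160 with none, 64 controls left out), and the 18193 genes were each represented by their brightest probe set. A gene was tested when at least 2 arrays had it above their 40th percentile (log2 5.35 on average). With limma 3.58.1 (lmFit, eBayes) in R 4.3.3 the 4 group means were fitted jointly to the 8 arrays, which left 4 residual degrees of freedom (6.86 moderated). Two-sided p-values were adjusted by Benjamini-Hochberg over 13819 genes in each of 6 comparisons and in the difference between both Gtf2i effects, with a threshold of 0.05. The script was tested on simulated data. The exon 2 mutant arrays were registered apart, and no label gives a batch, so batch and line cannot be told apart.

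The members and gene lists were chosen with earlier results of these data known. Named are the 8 genes, Gtf2i and Hprt, up to 4 genes past the threshold per list and comparison by absolute log2 change, and the 3 nearest profiles per gene, clone and predicted names left out. Lists were gp130 ligands, gp130 co-receptors, other JAK and STAT genes, inhibitors and adapters, STAT3 targets in stem cells, STAT3 acute-phase targets, and feeder, stem cell and leukocyte markers. Cntf, Il11ra1, C3, Fbn1 and Tdh were not analysed here. Alternatives were further scaling of the deposited values, other filters, other probe set rules, an intensity trend, a 2-fold rule, fits to the compared arrays only, a replicate block and leaving out each array.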

Additional observations from a re-analysis of the deposited data

Results flagged for a closer look

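The exon 2 mutant minus wild-type and the trap line minus the Hprt knockout (both Gtf2i effects) were compared with limma on all 8 arrays. Each is a difference between lines, in which line and mutation cannot be told apart. The difference between both passed the test for 6 of the 8 genes, beside 69.7% of all tested genes. For Lif it was -3.75 ± 0.09 on the log2 scale (adjusted p = 9.89e-08), with effects of -2.54 and 1.21. For Osmr it was -6.50 ± 0.14, with Hprt knockout values below the filter level, so that its size is not well measured. Osmr was tested through the groups where it was high, so its call, among the 6, carries no weight. For Jak1 it was -2.30 ± 0.09 (adjusted p = 1.04e-06), and for Jak2 -2.01 ± 0.14 (adjusted p = 1.48e-05). For Il6st it was -1.64 ± 0.09 (adjusted p = 5.24e-06), and for Stat3 -0.90 ± 0.07 (adjusted p = 2.36e-05). Lifr (0.27, adjusted p = 0.176) and Socs3 (-0.20, adjusted p = 0.105) did not pass. Socs3 passed with cyclic loess (-0.45, adjusted p = 0.00366) and with an intensity trend (adjusted p = 0.0262), and Lifr without the second exon 2 mutant array (0.43, adjusted p = 0.0205). All 25 feeder markers were lower in the same difference, with a median of -4.77, and their part in it was not tested.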

How the results depend on the processing

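Apart from the 2-fold rule, each member difference was refitted under 16 alternatives (15 for the difference between both effects). Of 39 that passed, 33 kept their direction and stayed past the threshold in all of these. Of 17 that did not pass, 7 passed in none of these, and 3 of the 7 also kept their sign throughout. With a 2-fold rule the members called were 1 in the exon 2 mutant against wild-type, 1 in the trap line against wild-type, 4 in the exon 2 mutant against the Hprt knockout and 0 in the exon 2 mutant against the trap line, where 3 passed in limma at adjusted p. In that comparison 5 were called with a filter at the 60th percentile, beside 6578 of 10900 tested genes. With an intensity trend 5 were called, beside 7276 of 13819 tested genes. Leaving out each array gave 4 to 6 members called in the exon 2 mutant against wild-type, 6 in the trap line against the Hprt knockout and in the Hprt knockout against wild-type, 4 in the trap line against wild-type, 7 to 8 in the exon 2 mutant against the Hprt knockout, 2 to 4 in the exon 2 mutant against the trap line, and 6 to 7 for the difference between both effects. With 1 array left in a group, that array is assumed to vary like the others. The share of all genes called in these fits is not given here, so their counts say little by themselves. Without an array, Socs3 in the trap line against the Hprt knockout ran from -0.12 to 0.0019, and Jak2 in the trap line against wild-type from -0.0204 to 0.0886.

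Cyclic loess turned the sign of Socs3 in the trap line against the Hprt knockout (0.0869), of Lifr (-0.0080) and Jak2 (-0.0238) in the trap line against wild-type, and of Lifr in the difference between both effects (-0.0141); none of these passed before or after. Averaging the probe sets of a gene turned Lifr in the trap line against the Hprt knockout (-0.12), in the Hprt knockout against wild-type (0.16), in the exon 2 mutant against the Hprt knockout (-0.14) and in the exon 2 mutant against the trap line (-0.0236). It also turned Socs3 in the Hprt knockout against wild-type (0.0074) and Stat3 in the exon 2 mutant against the trap line (0.16). It lowered Lif in the exon 2 mutant against wild-type to -1.42 and Osmr in the Hprt knockout against wild-type to -3.92, since the dimmer probe sets enter the mean.

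The differences between the 2 replicates of a group correlated at -0.28 to 0.18 between groups. Whether arrays with the same replicate number were processed together was not tested. A fit with the replicate number as a block called 5, 6, 6, 4, 7 and 2 members in the exon 2 mutant against wild-type, the trap line against the Hprt knockout, the Hprt knockout against wild-type, the trap line against wild-type, the exon 2 mutant against the Hprt knockout and the exon 2 mutant against the trap line, and 6 for the difference between both effects. The share of all genes called in that fit is likewise not given here. Socs3 in the exon 2 mutant against the Hprt knockout passed at adjusted p = 0.0474 in the report's fit and not in 11 of 16 alternatives, with adjusted p up to 0.375. Probe sets near the filter level, as the second of Lif, limit what their differences can show.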
